A study of Mus musculus with 6 samples.

Results

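Genes that move, store and sense iron and zinc, with the metallothioneins, were described in 2 mouse endothelial cell lines, bEnd.3 and UV2. The genes were chosen by symbol from the deposited table: all zinc transporters of the Slc30a (ZnT) and Slc39a (ZIP) families, and 16 named genes of iron handling and metal buffering (Slc11a1, Slc11a2, Slc40a1, Tfrc, Trf, Fth1, Ftl1, Ireb2, Aco1, Steap1, Steap2, Steap3, Steap4, Mt1, Mt2 and Mt3). This gave 40 genes of 24411 in the table, of which 24 were zinc transporters. The data were bulk RNA-seq of 6 libraries, 3 of each line. bEnd.3 cells descend from mouse brain endothelium transformed by the middle T antigen of polyomavirus, and the labels name BALB/c as their strain. UV2, also written UV♀2, is labelled as endothelial and as (BALB/c x C57BL/6)F1. Both lines had been grown to confluency on 10-cm dishes and then kept for 3 days without serum, so no group with serum was compared. Separate cultures are not stated for the 3 replicates, and p-values therefore measure the spread between these libraries, which may be technical.

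As background, cells take up iron bound to transferrin through the transferrin receptor. The metal is reduced in endosomes by STEAP proteins, released to the cytosol by the transporter encoded by Slc11a2, stored in ferritin, and exported by ferroportin, the product of Slc40a1. Iron regulatory proteins bind stem-loops called iron-responsive elements (IREs) in several of these mRNAs, and the binding sets how much ferritin, ferroportin and transferrin receptor is made. ZIP proteins bring zinc into the cytosol, ZnT proteins move it out of the cell or into organelles, and metallothioneins bind zinc and copper in the cytosol. In endothelium, ferroportin and the transferrin receptor carry iron across the blood-brain barrier.

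Library totals were 21306441 to 28748128 expected counts, that is, estimated numbers of reads per gene. Levels are CPM, counts relative to library totals scaled by TMM (a normalisation that aligns most genes between libraries), given as mean ± SD over n = 3 libraries or per library in the order of replicates 1, 2 and 3. A log2 difference is the fitted UV2 value less the bEnd.3 value, the figure after its ± sign is its standard error, and a gene was called when its adjusted p from edgeR's quasi-likelihood test was under 0.05. The 8 endothelial markers listed for this work summed to 10655 to 11110 CPM in bEnd.3 and 10881 to 12463 CPM in UV2. Of these 8, 1 was called higher in UV2 (Tie1, 1.84-fold), 2 were called lower and 5 were not called. That is 37.5% called, where 67.1% of all tested genes were. The lower ones were Emcn (780 ± 57.2 CPM in bEnd.3 and 281 ± 29.2 CPM in UV2) and Erg (363 ± 35.9 and 286 ± 16.4 CPM). Macrophage and leukocyte markers summed to 91.4 to 161 CPM in bEnd.3 and 610.3 to 632 CPM in UV2. Nearly all of it came from Cd68 (116 ± 37.2 and 285 ± 49.8 CPM) and Lyz2 (1.27 ± 0.392 and 330 ± 55.3 CPM). Cd14 held 22 counts in bEnd.3 and 111 in UV2, Itgam 3 and 19, Csf1r 36 and 39, and Tyrobp 0 and 1. Adgre1 had 0 counts in every library, and Ptprc had 1 count in bEnd.3 and 0 in UV2. Fibroblast markers summed to 3.12 to 3.46 CPM and 27.1 to 67.2 CPM, mostly Col3a1 and Pdgfra, with Dcn at 1 count in each line. Pericyte and smooth muscle markers summed to 0.529 to 0.713 CPM and 3.70 to 6.25 CPM, mostly Pdgfrb in UV2 (15.4-fold higher there). Acta2 held 0 counts in bEnd.3 and 39 in UV2, Myh11 16 and 4, Cspg4 7 and 1, Kcnj8 4 and 4, and Rgs5 0 and 2. The part of these cell types in the results below was not tested. In bulk RNA, fewer cells of a type and less RNA per cell cannot be told apart.

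The differences beyond 2-fold lay in the iron exporter gene, the Steap family and 1 zinc importer. UV2 had 19.7-fold less Slc40a1 transcript and 38.2-fold less Steap3 than bEnd.3, and 9.44-fold more Steap1 and 4.42-fold more Steap2. Both ferritin subunits were lower in UV2 by 1.45- to 1.56-fold, while Tfrc did not pass the test. Among tested zinc transporters only the scarce importer Slc39a4 differed by more than 2-fold (10.9-fold more in UV2), and metallothionein transcripts were close to the counting floor in both lines. Of the 40 genes, 27 had enough counts to be tested. In UV2, 13 of these were higher and 8 were lower, 77.8% in all, where 67.1% of all 12720 tested genes were called, 33.9% higher and 33.3% lower. Beyond 2-fold, by edgeR's glmTreat, 3 were higher (Steap1, Steap2 and Slc39a4) and 2 were lower (Slc40a1 and Steap3), or 18.5% of the 27, where 19.4% of all tested genes were called, 10.6% higher and 8.81% lower. The median log2 difference was 0.22 for these genes and -0.01 for all tested genes, and the median size was 0.53 against 0.502. The share of calls and the size of the changes were thus near those of the table as a whole, and the text below turns to which genes moved. At 23 of the 27 genes every library of one line was above every library of the other, which held for 73.2% of all tested genes.

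**Figure D1:**
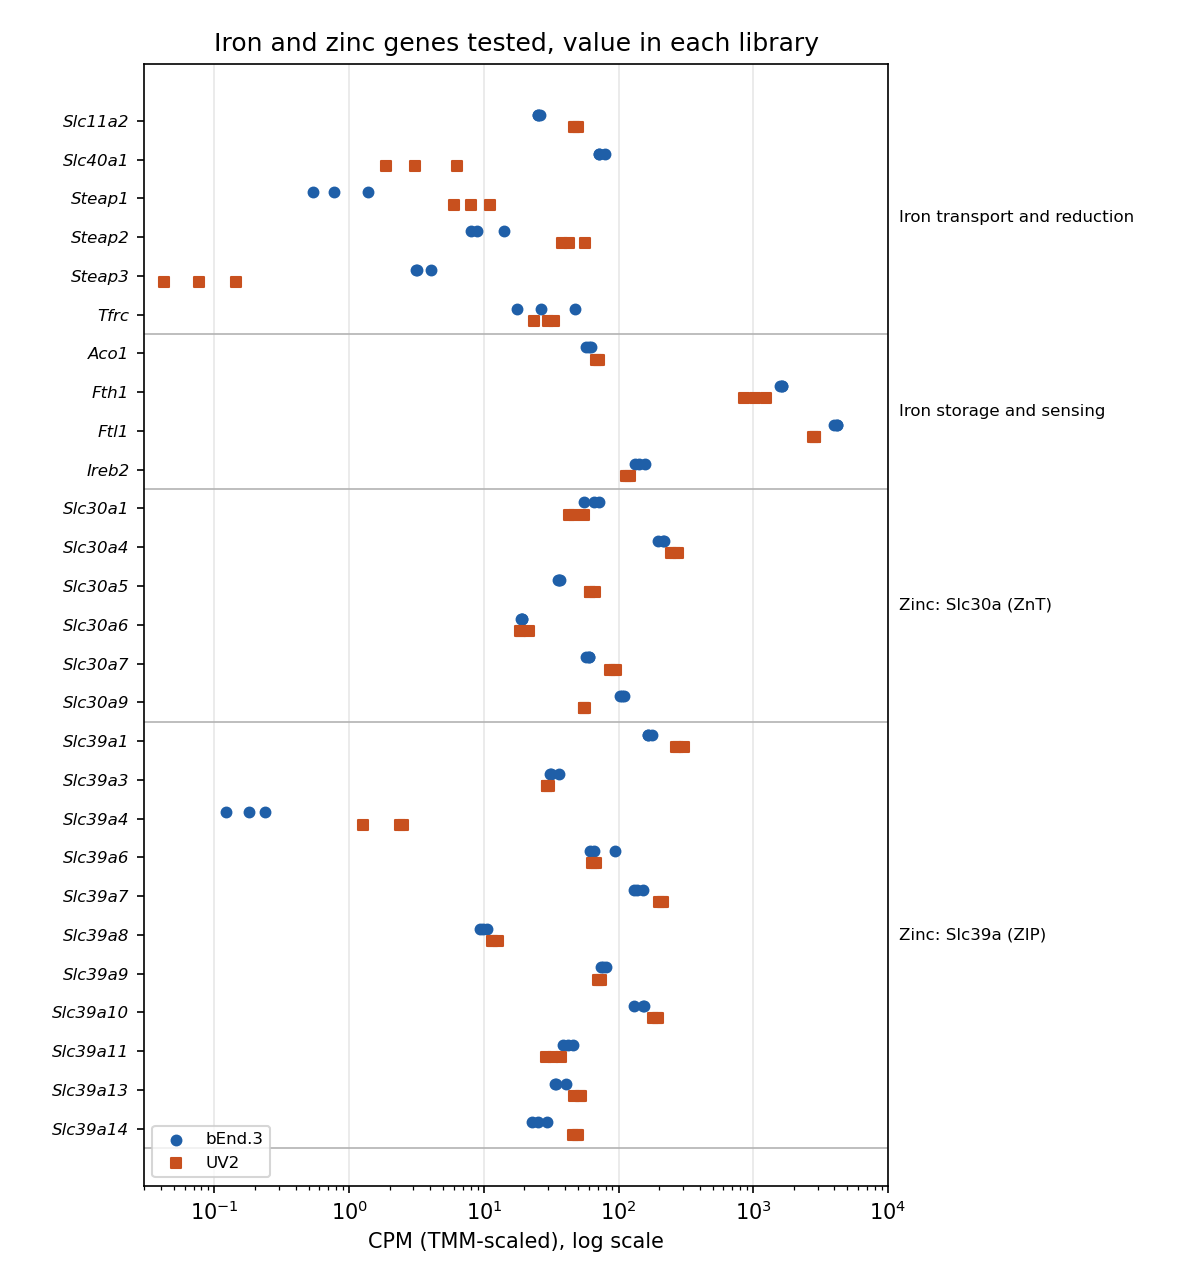
Level of each of the 27 tested genes in every library, in TMM-scaled CPM on a log axis, with bEnd.3 as circles and UV2 as squares, grouped by role. The lines stand farthest apart at Slc40a1, Steap1, Steap3 and Slc39a4, and Ftl1 is the highest point of both lines.

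The sequences that tie these mRNAs to iron are their IREs, shown here because the exporter, both ferritins and the uptake receptor differ in where the element sits. GENCODE M21 transcripts (build GRCm38, the assembly of mm10) were searched on the transcript strand for an unpaired C, 5 bases, the loop CAGTGN and 5 bases that pair with the 5 before the loop, G with T allowed. Such a stretch was in the 5′ UTR of 31 and the 3′ UTR of 129 of 21877 genes, that is 0.142% and 0.59%. Of the 40 genes here 4 had a match: Fth1, Ftl1 and Slc40a1 in the 5′ UTR, where binding of an iron regulatory protein is known to block translation, and Tfrc at 4 places in the 3′ UTR, where it is known to stabilise the mRNA. Each lay in a single exon. Elements with a bulge or mismatch in these 5 pairs were missed by this search. Genes without a match, Slc11a2 among them, may therefore still hold an element. Capitals mark the 6-base loop in 27 bases of each.
Fth1, chr19:9982733-9982759, plus strand: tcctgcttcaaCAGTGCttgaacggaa
Ftl1, chr7:45459780-45459806, minus strand: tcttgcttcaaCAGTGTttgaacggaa
Slc40a1, chr1:45925466-45925492, minus strand: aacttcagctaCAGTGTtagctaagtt
Tfrc, chr16:32631220-32631246, plus strand: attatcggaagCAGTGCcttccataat
Tfrc, chr16:32631599-32631625, plus strand: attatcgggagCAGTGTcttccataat
Tfrc, chr16:32631664-32631690, plus strand: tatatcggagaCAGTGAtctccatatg
Tfrc, chr16:32631711-32631737, plus strand: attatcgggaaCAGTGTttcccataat
Their levels in the lines are given gene by gene below. Transcript counts do not show translation, which was not measured.

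Ferroportin is the only known cellular iron exporter of vertebrates. Its gene Slc40a1 (chromosome 1, 45908070 to 45926532) stood at 71.8, 71.9 and 78.7 CPM in the bEnd.3 libraries and at 6.33, 3.10 and 1.89 CPM in the UV2 libraries. Every bEnd.3 library was thus far above every UV2 library, and the UV2 libraries varied among themselves by a coefficient of variation of 60.9% (5.32% in bEnd.3). The log2 difference was -4.30 ± 0.35 (adjusted p = 2.44e-05), and -4.90 without UV2 replicate 1. The nearest genes on either side that could be tested did not go the same way. Wdr75 had a log2 difference of -0.07 ± 0.12 (adjusted p = 0.598), and the zinc importer gene Slc39a10, which follows on the same chromosome, was higher in UV2 (0.38 ± 0.08, adjusted p = 0.00408). Of 4 tested neighbours 2 were higher, the other being Col3a1 (5.13 ± 0.56), and none was lower. Dnah7b, between Slc40a1 and Slc39a10, held 11.46 counts in bEnd.3 and 1.17 in UV2, and Tmeff2, beyond Slc39a10, held 3 and 29. Neither was tested. Neighbouring genes, here and below, were picked by position alone, 3 on each side, after the values of the gene between them had been seen. Among all tested genes 33.9% were called higher and 33.3% lower, and counts among so few neighbours cannot be told apart from these shares.

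The receptor for transferrin-bound iron did not pass the test. Tfrc, which encodes transferrin receptor 1 (chromosome 16, 32608896 to 32632794), had 47.8, 26.8 and 17.7 CPM in bEnd.3 and 33.1, 30.1 and 23.6 CPM in UV2. The UV2 values lay inside the range of the bEnd.3 values. The bEnd.3 libraries differed by a coefficient of variation of 50.3%, where the median of 9605 well-expressed genes was 8.03%, and replicate 1 was the highest library in both lines. The log2 difference was -0.08 ± 0.33 (adjusted p = 0.832), and its sign turned to 0.38 without bEnd.3 replicate 1 and to 0.01 with the replicate number as a block. Slc11a2, the endosomal and plasma membrane iron transporter DMT1 (chromosome 15, 100387898 to 100424209), had 25.2, 25.4 and 25.9 CPM in bEnd.3 and 49.8, 47.6 and 46.8 CPM in UV2. The groups were tight and did not overlap, with a log2 difference of 0.91 ± 0.07 (adjusted p = 1.69e-05). The 376 well-expressed genes of chromosome 15 had a median of 0.475, and with each chromosome's median removed the Slc11a2 value was 0.44 (adjusted p = 0.000876). Transferrin itself, Trf, held 10 counts in the bEnd.3 libraries together and 4 in UV2. Slc11a1, the phagosomal transporter NRAMP1 of macrophages, held 3 and 4 counts, and neither gene could be tested.

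Several, but not all, STEAP proteins are known to reduce ferric iron and cupric copper before transport, and Steap3 is the ferrireductase of erythroid endosomes. The 4 genes went different ways. Steap3 (chromosome 1, 120226414 to 120271081) had 4.03, 3.21 and 3.16 CPM in bEnd.3, and 6 counts in all in UV2, or 0.0422, 0.145 and 0.0771 CPM. Its log2 difference was -5.26 ± 0.35 (adjusted p = 9.05e-06), so the transcript was modest in bEnd.3 and near the counting floor in UV2. Steap3 and Slc39a4 fell outside the rule for genes given library by library and were chosen after their values were seen. Steap1 (chromosome 5, 5736322 to 5749317) had 1.39, 0.773 and 0.543 CPM in bEnd.3 and 11.1, 7.995 and 6.01 CPM in UV2 (log2 difference 3.24 ± 0.36, adjusted p = 0.000135). Steap2 (chromosome 5, 5664829 to 5694649) had 14.2, 8.83 and 8.04 CPM in bEnd.3 and 55.9, 42.8 and 37.9 CPM in UV2 (log2 difference 2.14 ± 0.24, adjusted p = 0.000126). For both genes the lowest UV2 library was above the highest bEnd.3 library, and replicate 1 was the highest in each line. Steap4 had 0 counts in bEnd.3 and 10 in UV2, 8 of them in replicate 1, at least 3.62-fold higher against a floor of 3 counts over the 3 bEnd.3 libraries, and was not tested.

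Steap1 and Steap2 lie next to each other on chromosome 5, 41672 bases apart. The gene on the other side of Steap2, Cfap69, a cilia and flagella gene, was also higher in UV2, from 0.649 ± 0.111 CPM to 4.72 ± 0.846 CPM (log2 difference 2.85 ± 0.23, adjusted p = 2.61e-05). Gtpbp10, farther out on that side, did not pass the test (log2 difference -0.17 ± 0.10, adjusted p = 0.159). Sri, a calcium-binding protein gene beyond Steap4 on the other side, was higher in UV2 (log2 difference 0.76 ± 0.06, adjusted p = 1.73e-05), so 2 of the 3 tested neighbours were higher and none was lower. Near Steap3, the membrane protein gene Tmem37 was lower in UV2, from 7.33 ± 0.221 CPM to 0.0551 ± 0.0649 CPM (log2 difference -6.89 ± 0.39, adjusted p = 4.07e-06). Of the genes between Tmem37 and Steap3, Dbi did not pass the test (log2 difference -0.25 ± 0.13, adjusted p = 0.122) and 3110009E18Rik was lower in UV2 (log2 difference -0.96 ± 0.33, adjusted p = 0.0307). The 3 genes on the far side of Steap3 had 0 counts in every library.

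**Figure D2:**
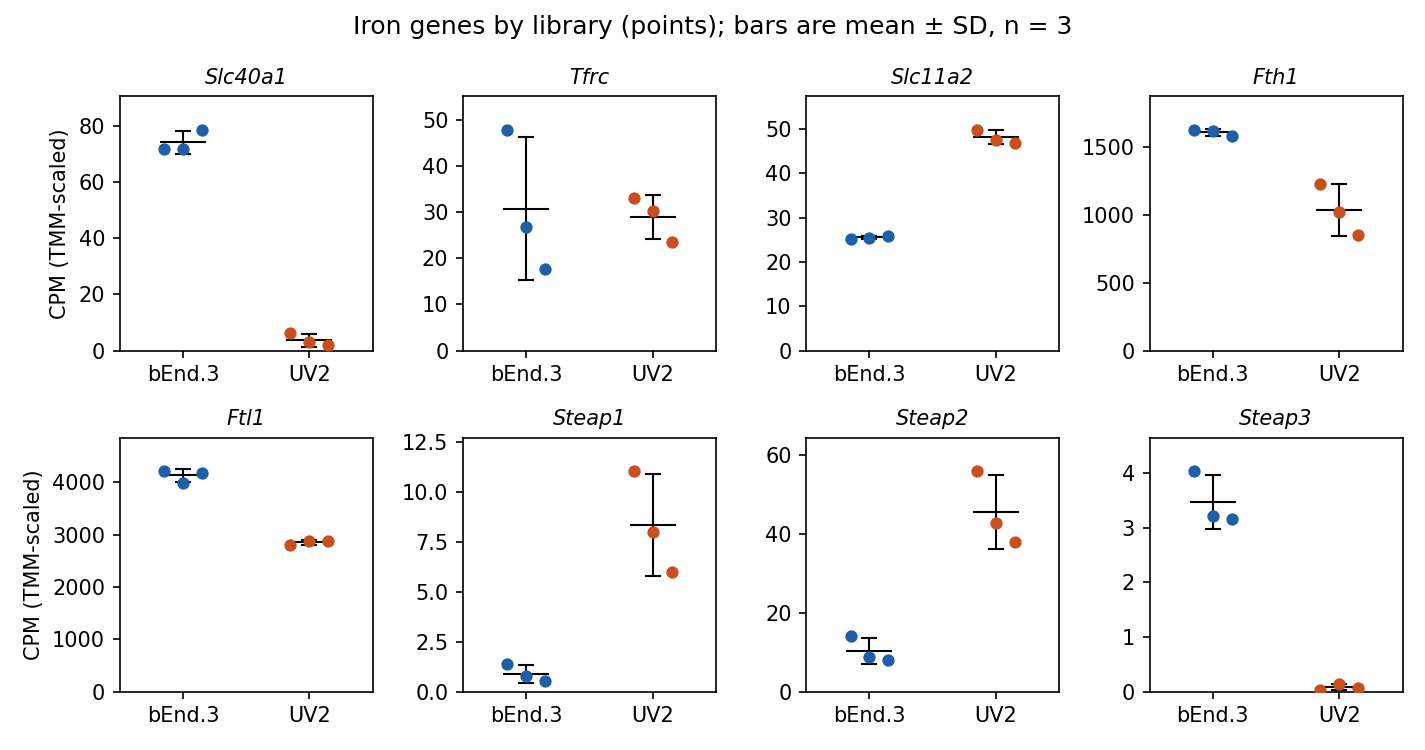
CPM in each library (points) with the mean and SD of n = 3 for 8 iron genes, each on its own linear axis from 0. Slc40a1 and Steap3 are near 0 in UV2, Steap1 and Steap2 are raised there, and the Tfrc points of the lines overlap.

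Ferritin stores iron in a shell of heavy (Fth1) and light (Ftl1) chains, of which the heavy chain oxidises the metal. Ftl1 (chromosome 7, 45457944 to 45459886) was the 6th or 7th most abundant gene by counts in the bEnd.3 libraries and the 11th in each UV2 library. It had 4213, 3990.2 and 4180.2 CPM in bEnd.3 and 2796, 2883 and 2881 CPM in UV2. Both groups were narrow and clearly apart, with a log2 difference of -0.53 ± 0.07 (adjusted p = 0.000363). Chromosome 7 had a median of -0.252, and with each chromosome's median removed the Ftl1 value was -0.28 (adjusted p = 0.0105). Fth1 (chromosome 19, 9980600 to 9985111) had 1631, 1624 and 1581 CPM in bEnd.3 and 1233, 1026 and 851 CPM in UV2. The UV2 libraries spread more for this gene, with a coefficient of variation of 18.5% against 1.66% in bEnd.3, but stayed below every bEnd.3 library (log2 difference -0.64 ± 0.13, adjusted p = 0.00288). Within a library the ratio of Fth1 to Ftl1 counts was 0.387, 0.407 and 0.378 in bEnd.3 and 0.441, 0.356 and 0.295 in UV2. These ratios overlapped (exact two-sided permutation test, p = 0.6, where 3 libraries against 3 cannot give less than 0.1), and the sign of the difference turned without UV2 replicate 3. The ratio of Tfrc to Fth1 counts was 0.0293, 0.0165 and 0.0112 in bEnd.3 and 0.0268, 0.0294 and 0.0277 in UV2, and it overlapped as well (exact two-sided permutation test, p = 0.3). Ferritin genes have many processed copies in the genome. Counts of Fth1 and Ftl1 were whole, to within 0.005, in every library, and the only other row named Fth or Ftl, Fthl17, had 0 counts.

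The genes of the iron regulatory proteins themselves differed little. Ireb2, which encodes IRP2, had 133, 156 and 143 CPM in bEnd.3 and 114, 121 and 118 CPM in UV2 (log2 difference -0.29 ± 0.08, adjusted p = 0.00947). Aco1, which encodes IRP1 and doubles as cytosolic aconitase, had 62.5, 60.5 and 57.3 CPM in bEnd.3 and 68.04, 71.3 and 70.6 CPM in UV2 (log2 difference 0.22 ± 0.06, adjusted p = 0.015). The lines did not overlap at either gene, in opposite directions. Neither call held when each chromosome's median was removed: the Ireb2 value was then -0.03 (adjusted p = 0.763) and the Aco1 value -0.02 (adjusted p = 0.748). The median of well-expressed genes was -0.26 on chromosome 9, where Ireb2 lies, and 0.25 on chromosome 4, where Aco1 lies. The Aco1 call was also lost with total counts (adjusted p = 0.0522) and without UV2 replicate 2 (adjusted p = 0.0523).

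Of the 14 ZIP genes 11 were tested, and 6 rose in UV2, 1 fell and 4 missed the threshold, so 63.6% were called, where 67.1% of all tested genes were. Slc39a4 (chromosome 15, 76612383 to 76618506), the dietary zinc importer of the gut, had 0.179, 0.122 and 0.238 CPM in bEnd.3 and 2.49, 2.37 and 1.27 CPM in UV2. It rested on 14 counts in bEnd.3 and 141 in UV2, and every UV2 library was above every bEnd.3 library (log2 difference 3.44 ± 0.41, adjusted p = 0.000184). Of the 6 genes nearest to Slc39a4, 4 were higher in UV2 and 1 was lower, with log2 differences from -0.74 to 1.53, so none of them moved as far. Slc39a14, a transporter of zinc, iron and manganese, rose from 25.7 ± 3.26 CPM to 48.4 ± 2.41 CPM (log2 difference 0.91 ± 0.10, adjusted p = 0.000148). On its chromosome 14 the median of well-expressed genes was 0.715, and the Slc39a14 call was lost when chromosome medians were removed (0.198, adjusted p = 0.132). Its relative Slc39a8 had 9.94 ± 0.598 and 12.004 ± 0.658 CPM and did not pass (adjusted p = 0.0538).

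The plasma membrane importer Slc39a1 rose from 169 ± 7.70 CPM to 283 ± 21.96 CPM (log2 difference 0.74 ± 0.08, adjusted p = 9.68e-05). Slc39a7, which releases zinc from the endoplasmic reticulum, rose from 139.5 ± 10.99 CPM to 209 ± 6.88 CPM (log2 difference 0.58 ± 0.08). Slc39a7 shares 1995 of its 2362 exon bases with Gm20427, an annotated gene on the same strand. Slc39a13, an importer of the early secretory pathway, rose from 36.3 ± 3.76 to 50.3 ± 3.35 CPM, and Slc39a10, a plasma membrane importer, from 146 ± 13.5 to 190.4 ± 7.62 CPM. Slc39a6, whose protein pairs with that of Slc39a10, did not pass the test (log2 difference -0.17 ± 0.15, adjusted p = 0.354), with bEnd.3 replicate 1 at 93.3 CPM and the other 5 libraries between 61.6 and 68.5 CPM. The 1 lower importer was Slc39a11, from 42.3 ± 3.51 to 33.1 ± 4.41 CPM (log2 difference -0.35 ± 0.11, adjusted p = 0.0253). That call was lost without bEnd.3 replicate 1 or 2, without UV2 replicate 2 or 3, and with chromosome medians removed, at adjusted p = 0.0612 to 0.0784. Slc39a3 and Slc39a9 did not pass the test (log2 differences -0.15 and -0.10). Slc39a2 held 13 and 15 counts, Slc39a5 1 and 0, and Slc39a12 had none.

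Of the 10 ZnT genes 6 were tested, and 3 rose in UV2, 2 fell and 1 missed the threshold, so 5 of 6 were called, where 67.1% of all tested genes were. Slc30a9, which exports zinc from mitochondria, had 105.5, 103 and 109.6 CPM in bEnd.3 and 54.99, 55.1 and 56.3 CPM in UV2. It had the lowest spread of the changed zinc transporters in UV2 (coefficient of variation 1.32%) and the log2 difference was -0.94 ± 0.06 (adjusted p = 6.47e-06). Slc30a5, a transporter of the secretory pathway, rose from 36.01 ± 0.72 to 63.01 ± 2.99 CPM (log2 difference 0.81 ± 0.07, adjusted p = 2.81e-05). Its known partner in a heterodimer, Slc30a6, had 19.1 ± 0.104 and 19.6 ± 1.73 CPM (log2 difference 0.04 ± 0.09, adjusted p = 0.727, with the sign turning under total counts). Chromosome 13, which holds Slc30a5, had a median of 0.524, and without it the Slc30a5 value was 0.28 (adjusted p = 0.00694).

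The Golgi transporter Slc30a7 rose from 59.0 ± 1.81 to 92.04 ± 4.71 CPM (log2 difference 0.64 ± 0.07, adjusted p = 8.19e-05), and Slc30a4, a transporter of vesicles and lysosomes, from 209.9 ± 10.97 to 260.5 ± 14.2 CPM (log2 difference 0.31 ± 0.07, adjusted p = 0.00572). Slc30a1, the plasma membrane zinc exporter, had 55.3, 71.1 and 66.2 CPM in bEnd.3 and 42.9, 46.4 and 55.7 CPM in UV2. The highest UV2 library was above the lowest bEnd.3 library, and the call (log2 difference -0.41 ± 0.13, adjusted p = 0.0203) was lost without bEnd.3 replicate 2 or 3, without UV2 replicate 1 or 2, and with chromosome medians removed, at adjusted p = 0.0534 to 0.424. Counts of Slc30a1 and Slc30a7 were not whole, as RSEM gives where it divides reads between genes, and both values are uncertain to that extent. Slc30a2, Slc30a3, Slc30a8 and Slc30a10, known from mammary gland, synaptic vesicles, insulin granules and manganese export, had 0 counts in every library, which allows up to 0.0393 CPM in bEnd.3 and 0.0427 CPM in UV2 (3 counts over the libraries of a line, for counting error only).

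Per kilobase of exon, on a scale for rough comparison between genes, the same 4 zinc transporters led in both lines. The length covers all annotated exons of a gene, not only those transcribed in these cells, so the order is approximate. Slc39a1 had 71.7 ± 3.26 CPM per kb in bEnd.3 and 120 ± 9.29 in UV2, ahead of Slc39a7 (59.1 ± 4.65 and 88.5 ± 2.91), Slc30a4 (38.3 ± 2.00 and 47.5 ± 2.59) and Slc39a10 (26.5 ± 2.46 and 34.6 ± 1.39). In each line every step down among these 4 was larger than the SDs of the genes it separated. The next levels in bEnd.3, Slc39a6 at 19.0 ± 4.42 and Slc30a9 at 18.6 ± 0.571 CPM per kb, did not differ beyond their spread. In UV2 Slc30a9 was at 9.71 ± 0.129 CPM per kb, and the fifth and sixth places were held by Slc39a13 (20.04 ± 1.34) and Slc30a5 (19.8 ± 0.941), which did not differ beyond their spread either. On the same scale Ftl1 had 4264 ± 124 CPM per kb in bEnd.3 and 2948 ± 50.9 in UV2, and Slc40a1 21.999 ± 1.17 and 1.12 ± 0.682.

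**Figure D3:**
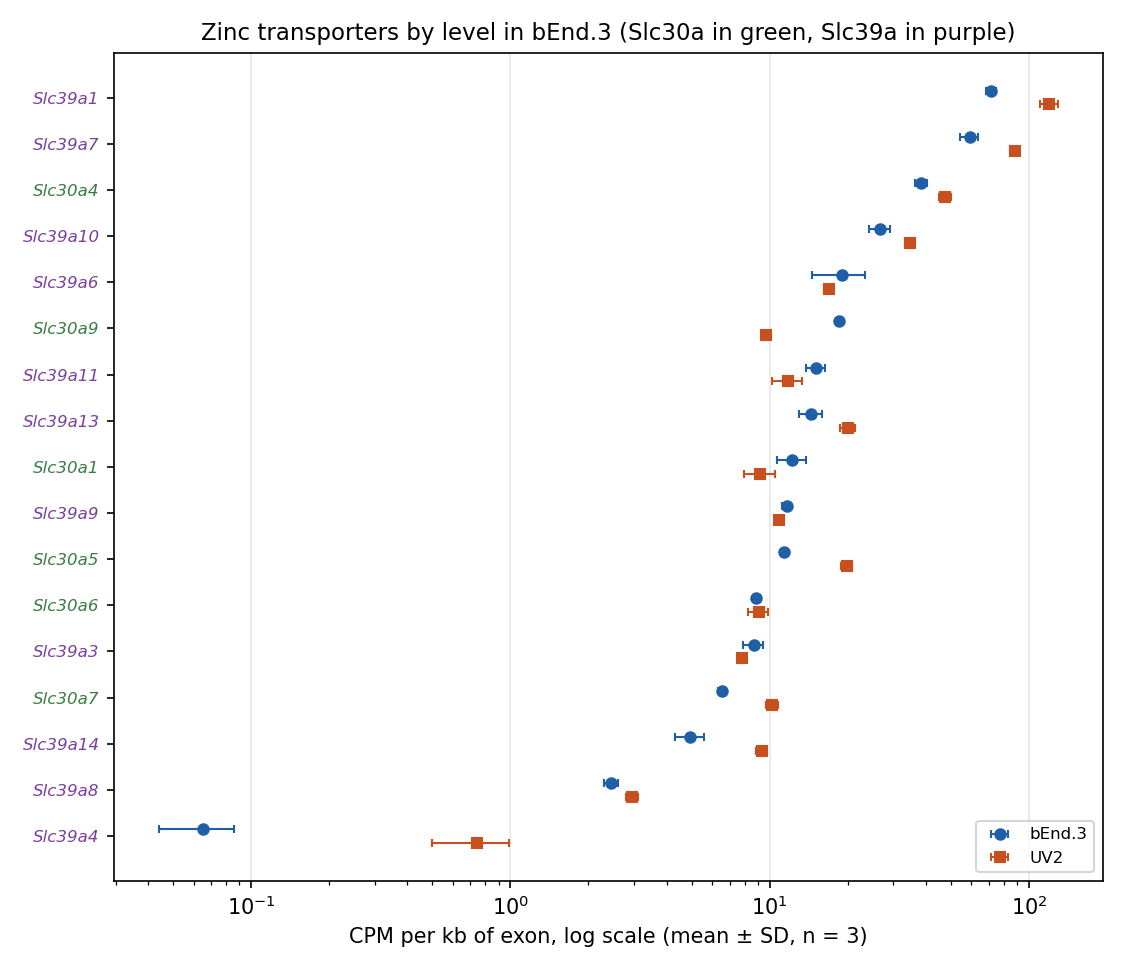
Level of the 17 tested zinc transporter genes per kilobase of exon on a log axis, mean ± SD of n = 3, in order of the bEnd.3 level. Slc39a1, Slc39a7, Slc30a4 and Slc39a10 lead in both lines, and UV2 lies to the left of bEnd.3 most plainly at Slc30a9.

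Metallothioneins are small cysteine-rich proteins whose genes are switched on by zinc through the metal-sensing transcription factor MTF1. All 3 examined were near or at 0. Mt1 (chromosome 8, 94178883 to 94180327) held 1, 0 and 0 counts in the bEnd.3 libraries and 5, 5 and 2 counts in UV2. Mt2 (chromosome 8, 94172618 to 94173567) held 1, 0 and 2 counts in bEnd.3 and 12, 6 and 5 in UV2. Mt3, the form known from brain, had 0 counts throughout. The ratio of UV2 to bEnd.3 was 13.04 for Mt1 (95% exact counting interval 1.93 to 557) and 8.33 for Mt2 (2.52 to 43.3). Neither gene passed the count filter, and in the fit without a filter their adjusted p-values were 0.0289 and 0.0116. Reads are not independent molecules, so the intervals cover counting error only. Neither line had more than 0.507 CPM of either transcript in any library.

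Of the 6 genes around the metallothionein cluster 5 had enough counts to be tested, and Slc12a3 held 0 and 1 counts. In UV2 3 of the 5 were higher (Nup93, Herpud1 and Nudt21) and none was lower. Bbs2, a ciliary gene on one side, had 14.3 ± 2.16 and 16.1 ± 1.77 CPM (log2 difference 0.17 ± 0.14, adjusted p = 0.321). Nup93, a nuclear pore gene on the other side, had 50.1 ± 2.63 and 87.99 ± 4.43 CPM (log2 difference 0.81 ± 0.07, adjusted p = 3.68e-05). Mtf1 had 30.6 ± 3.29 and 38.4 ± 2.05 CPM (log2 difference 0.33 ± 0.10, adjusted p = 0.0176), and Slc30a1, another gene known to answer to MTF1, was at the levels given above.

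Metal response elements, the sites that MTF1 binds, were looked for in RefSeq promoters (GRCm38.p6, 250 bases before to 50 after the start) as TGCACNC and TGCGCNC on both strands. Promoters were available for 33 of the 40 genes, 45 promoters in all. Of these genes 18 had a match in any of their promoters and 4 had at least 3 in 1 promoter. Mt2 had 4 matches, Mt1, Slc30a4 and Slc30a10 had 3 each, and Slc30a1 had 2. Of 32851 promoters 25.7% had at least 1 match and 1.97% at least 3. Those shares are per promoter, and genes with several promoters had more chances to match. The counts of genes therefore cannot be set directly against them. The 250 bases before the start are shown for Mt2, the gene here with the most matches and with counts near 0, and capitals mark the 3 matches in them. The fourth lies in the 50 bases after the start, which are not printed.
Mt2, chr8:94172368-94172617, plus strand: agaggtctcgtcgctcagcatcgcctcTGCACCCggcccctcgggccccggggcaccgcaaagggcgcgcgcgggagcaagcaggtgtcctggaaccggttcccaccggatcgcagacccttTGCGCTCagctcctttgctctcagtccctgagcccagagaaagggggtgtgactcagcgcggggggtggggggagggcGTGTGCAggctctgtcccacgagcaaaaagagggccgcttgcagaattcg
A match describes the letters only, and binding was not measured.

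**Figure D4:**
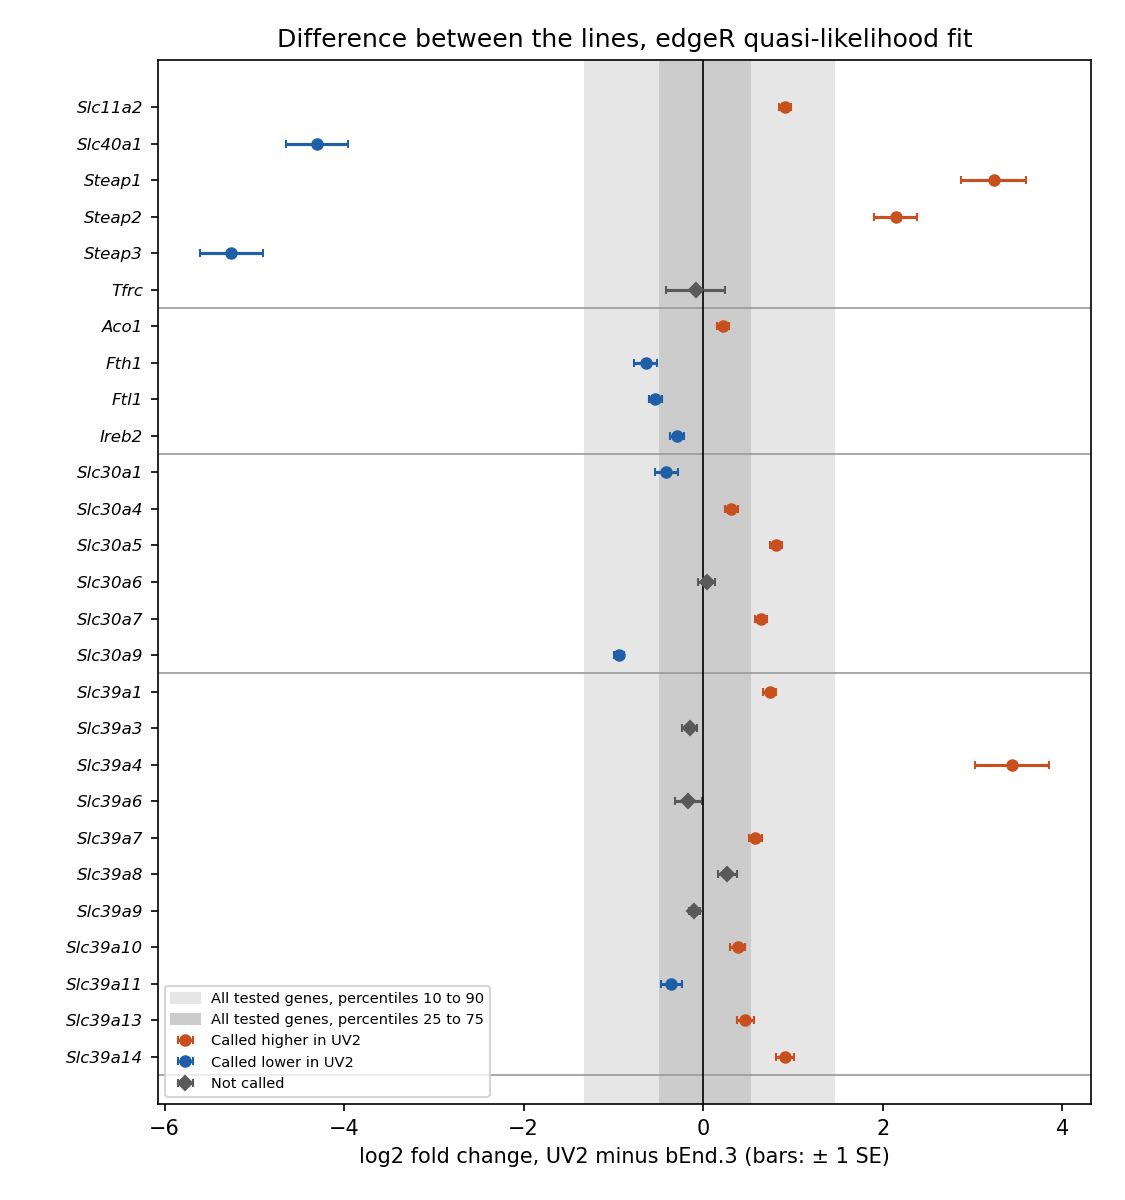
Log2 difference of the 27 tested genes, UV2 minus bEnd.3, with bars of ± 1 standard error, over bands that hold the middle of all 12720 tested genes (percentiles 10 to 90 in light grey, 25 to 75 in dark grey). Slc40a1, Steap3, Steap1, Steap2 and Slc39a4 lie outside the light band, and the other 22 lie within it.

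Other genes of metal handling, from a list of 69 symbols of which 65 were in the table, gave 20 higher and 17 lower among 53 tested, or 69.8%, which is close to the 67.1% of all tested genes (33.9% higher and 33.3% lower). Among these, heme synthesis genes moved in both directions. Alas1, the first and rate-limiting enzyme of heme synthesis, rose from 69.3 ± 7.79 to 417 ± 30.2 CPM (log2 difference 2.59 ± 0.10, adjusted p = 7e-07). Several later enzymes of the same pathway fell, with Alad from 95.8 ± 11.8 to 24.7 ± 2.35 CPM (log2 difference -1.96 ± 0.11), and Urod, Ppox and Fech by log2 values of -0.38, -0.98 and -0.61. Uros and Cpox did not pass the test (-0.42 and 0.22). The biliverdin reductase genes Blvrb and Blvra, which act after heme is opened, fell by 2.30 and 1.18 on the log2 scale. Hmox1, the heme oxygenase that frees the iron of heme, had 245 ± 65.4 and 299 ± 55.4 CPM and did not pass (log2 difference 0.29 ± 0.20, adjusted p = 0.229).

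Mitochondrial iron import genes Slc25a37 and Slc25a28 rose by 1.36 and 0.89 on the log2 scale, and the Slc25a37 value was 0.64 with chromosome medians removed. Fbxl5, which marks IRP2 for degradation, rose from 91.5 ± 6.30 to 136 ± 6.38 CPM, and Ncoa4, the receptor that carries ferritin to lysosomes, from 127 ± 6.76 to 197 ± 9.61 CPM. The Ncoa4 log2 difference, 0.64 ± 0.07, was below the median of well-expressed genes on its chromosome 14, 0.715. Hfe, a partner of the transferrin receptor, fell by 1.01, and Slc22a17, a lipocalin receptor, by 1.79 (by 2.50 with chromosome medians removed). Abcb6, a porphyrin transporter, and Sco2, a copper chaperone of cytochrome oxidase, rose by 1.07 and 1.03. The copper-exporting ATPase gene Atp7a rose from 94.5 ± 6.74 to 265 ± 10.01 CPM (log2 difference 1.49 ± 0.08, adjusted p = 2.27e-06). Lrp1, an endocytic receptor that takes up heme-hemopexin among many ligands, rose from 14.4 ± 5.52 to 323 ± 119.6 CPM (log2 difference 4.49 ± 0.35, adjusted p = 2.05e-05). The ferroxidase genes Heph and Cp, whose proteins work with ferroportin, were scarce. Heph held 23 and 3 counts and was not tested. Cp rose from 1.28 ± 0.325 to 3.04 ± 0.86 CPM (log2 difference 1.25 ± 0.29, adjusted p = 0.00587).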

How the data were processed

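Per the labels' protocols, the TruSeq Stranded mRNA kit was used. RSEM, STAR and Trim Galore, with build mm10, come from the submitters' processing notes. The sources used here give no versions, annotation or strand setting. The authors deposited expected counts per gene symbol, not normalized, and 8.23% to 8.73% of values per library were not whole. Without a known strand setting, exons shared with a gene on the other strand make 6 tested genes (Ftl1, Slc11a2, Slc30a1, Slc30a7, Slc39a13 and Slc39a9) and Mt2 and Slc30a10 uncertain.

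Counts were rounded, filtered by filterByExpr (12720 of 24411 genes kept), scaled by TMM (factors 0.969 to 1.03) and tested by quasi-likelihood in edgeR, with the cell line as the only term. Benjamini-Hochberg adjustment ran over all tested genes. The SE is the log2 fold change divided by the root of the F statistic. The biological coefficient of variation was 0.124. Well-expressed genes are those with an average log2 CPM above 3. Exon lengths are unions of GENCODE M21 basic exons, and gene positions are RefSeq GRCm38.p6. The procedure was tested on simulated data. Replicates were no copies of each other (chi-square per degree of freedom 11.3 to 38.4). The main fit and the main permutation tests took the libraries as unpaired. Only the replicate block and the paired swaps used replicate numbers from the titles to pair the libraries. Same-numbered libraries of the lines deviated together only weakly, with correlations of 0.166, 0.275 and 0.328. Libraries with different numbers gave -0.347 to 0.101. The titles are the only source of the pairing.

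The genes, lists and tests were chosen with earlier results of these data known. Values in every library were given for called genes with a log2 change of 1 or more and 5 CPM or more in the higher line, and always for Tfrc, Fth1, Ftl1, Slc40a1, Ireb2, Aco1, Mt1 and Mt2. Slc11a2, Slc30a1, Slc30a9, Steap3 and Slc39a4 were added after their values were seen. Related genes were named by the same limits, up to 12, and the rest of those named were picked by their role after their values were seen. The planned Mt1/Mt2 ratio was not computed, since libraries held 0 counts. Marker lists for epithelium, hepatocytes, oligodendrocytes and erythroid cells summed to 0 to 0.163, 0.0679 to 1.34, 1.51 to 1.93 and 0.269 to 0.956 CPM in bEnd.3, and to 0.127 to 0.501, 0.676 to 12.2, 0.886 to 1.35 and 0.549 to 4.48 CPM in UV2. Versions were edgeR 4.0.16, DESeq2 1.42.0 and limma 3.58.1 under R 4.3.3, and matplotlib 3.10.9 under Python 3.11.15.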

Additional observations from a re-analysis of the deposited data

How the results depend on the processing

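Of the 21 called genes, 16 kept their call and direction under all 14 alternatives: other scaling (2), other filters (2), the replicate block, leaving out each library (6), DESeq2, limma-voom and removal of chromosome medians. Aco1, Ireb2, Slc30a1, Slc39a11 and Slc39a14 lost theirs somewhere, as given with each gene, and the cause was not tested. With chromosome medians removed 11 genes were higher in place of 13, and 5 were lower in place of 8. Leaving out a library gave 12 to 13 higher and 6 to 7 lower genes, and always 3 higher and 2 lower beyond 2-fold. The replicate block changed no call among the 27 tested iron, zinc and metallothionein genes (13 higher and 8 lower). In the related list it gave 19 higher and 20 lower in place of 20 and 17. Sign turns were seen in genes that had not been called and in Aco1. Tfrc turned with the block (0.00899), limma-voom (0.0445), without bEnd.3 replicate 1 (0.382) and without UV2 replicate 3 (0.0477), and ranged from -0.369 to 0.382 without 1 library. Slc30a6 turned with total counts (-0.0260), without UV2 replicate 3 (-0.0330) and with chromosome medians removed (-0.0385), and ranged from -0.0330 to 0.0858 without 1 library. Slc39a6 turned without bEnd.3 replicate 1 (from 0.0392 then to -0.273 without bEnd.3 replicate 2), and Slc39a9 (0.115) and Aco1 (-0.0250) with chromosome medians removed. Slc39a8 was called with the filter of 1 CPM in 3 libraries (adjusted p = 0.0438), and Slc39a9 with total counts (adjusted p = 0.0442). The log2 difference of the Fth1 to Ftl1 ratio, -0.12, ranged from -0.269 to 0.0203 without 1 library, and that of Tfrc to Fth1, 0.67, from 0.35 to 1.04. Paired swaps gave exact permutation p = 0.5 for both, but with 3 pairs this test cannot go below 0.05 and so decides nothing.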
